A study of Mus musculus with 30 samples.

Results

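The 4 liver libraries of 12-month-old mice with and without hepatocyte Egr-1 were compared, out of 30 libraries in the series. They were taken by their labels as WT_12m_H, KO_12m_H, WT_12m_L, and KO_12m_L, with 1 library for each genotype and collection time. The KO mice carried floxed Egr-1 alleles and Cre recombinase driven by the albumin promoter, which removes the gene in hepatocytes and leaves it in the other cells of the liver. WT mice were littermates, all mice were male and fed chow, and the KO line came from strain 129 and had been backcrossed to C57BL/6J. H and L stand for the collection times at which Egr-1 protein was highest and lowest at that age, which were ZT5 and ZT21 at 12 months (ZT, zeitgeber time, counts hours from lights on). The study's legends state animal numbers per group for this experiment, but do not tie them to single libraries or say whether RNA was pooled. The 2 pairs, H and L, are therefore the only repeat of the comparison, and the p-values measure the spread between these libraries and not between known animals.

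Egr-1 is a zinc-finger transcription factor of the immediate-early class, whose RNA rises within minutes of growth factor, feeding, or stress signals and decays quickly. It binds GC-rich sites in promoters, and its activity is held back by the corepressors Nab1 and Nab2. In liver it is known for links to the circadian clock, to lipid droplets through Cidea, to inflammation, and to fibrosis.

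Total counts were 20406197 in WT_12m_H, 18764485 in KO_12m_H, 16332446 in WT_12m_L, and 13747706 in KO_12m_L. The 20 most abundant genes took 22.7% and 23.7% of the counts in the WT libraries and 20.7% and 20.6% in the KO libraries. Levels are given as CPM, the read count relative to library size after scaling with TMM factors, which adjust for such differences in makeup. The 10 hepatocyte markers, dominated by Alb, summed to 70612 CPM in WT_12m_H and 48733 CPM in KO_12m_H, and to 77850 CPM in WT_12m_L and 42129 CPM in KO_12m_L. Of these markers 7 were lower and 0 higher in both pairs, and the part of this difference in the lower hepatocyte genes described below was not tested. Markers of skeletal muscle summed to at most 1.07 CPM, and 3 of 6 of them had no count in any of the 4 libraries.

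Egr1, the targeted gene, was at 5.86 CPM (95% Poisson interval 4.85 to 7.0) in WT_12m_H, 6.11 CPM (5.09 to 7.28) in KO_12m_H, 55.3 CPM (51.7 to 59.1) in WT_12m_L, and 1.54 CPM (0.973 to 2.30) in KO_12m_L. The intervals cover counting error only. The library labelled KO was thus far below its WT partner in the L pair and at the same level in the H pair. The RNA therefore did not bear out the KO label in the H pair. WT_12m_L, from the time of lowest Egr-1 protein, held more Egr1 RNA than WT_12m_H. The paper reports that this RNA peaks at the L time at that age, while the protein peaks at the H time. In the 12-month time course, made from other C57BL/6J mice and normalized as a separate table, Egr1 ranged from 2.38 to 14.3 CPM, and WT_12m_L was above that range. The fitted log2 fold change was -2.29 ± 1.10 (SE, unadjusted p = 0.0709, edgeR quasi-likelihood test), and without the L pair it was 0.08. Which exons were floxed is not given in the sources used here, and the counts do not separate hepatocytes from other liver cells. Every direction below is that of the libraries labelled KO against their WT partners.

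**Figure D1:**
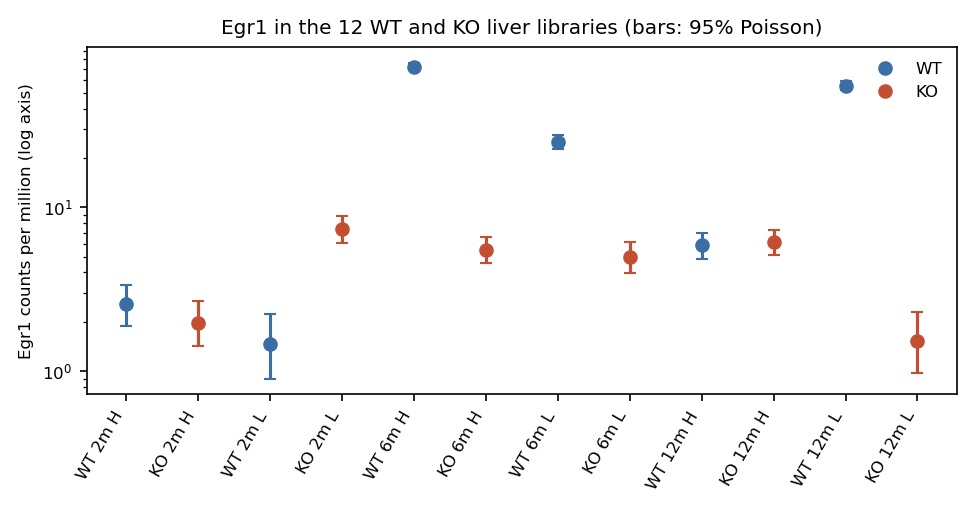
Egr1 level (CPM, log axis) in each of the 12 libraries of the genotype experiment, with WT in blue and the libraries labelled KO in red, and 95% Poisson intervals as bars. At 12 months WT_12m_L stands at 55.3 CPM, KO_12m_L at 1.54 CPM, and both H libraries near 6 CPM (5.86 and 6.11).

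Nab1 was at 62.9, 50.9, 76.1, and 74.7 CPM in WT_12m_H, KO_12m_H, WT_12m_L, and KO_12m_L, and Nab2, which is itself induced by Egr-1, at 12.7, 8.90, 12.8, and 10.7 CPM. Egr2, a family member with a similar binding site, was at 0.244, 0.391, 0.320, and 2.60 CPM. Of the 16 other immediate-early genes tested, 5 were higher and 4 lower in the KO library of both pairs, and their median log2 fold change was 0.17. The 3 most abundant were Dusp1 (63.8, 73.1, 66.9, and 31.6 CPM in the same order), Zfp36 (47.2, 45.3, 69.2, and 30.8 CPM), and Jund (31.7, 29.3, 33.5, and 25.4 CPM). Dusp1 encodes a phosphatase that ends MAP kinase signals, Zfp36 a protein that destabilizes RNA, and Jund a member of AP-1. Myc, picked here after its values were seen, was at 0.897 CPM in WT_12m_L and 11.6 CPM in KO_12m_L, compared with 3.81 and 5.67 CPM in the H pair.

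No gene passed the main test at 12 months. With all 12 genotype libraries in 1 edgeR quasi-likelihood fit, 0 of 14843 genes tested (0%) had a Benjamini-Hochberg adjusted p under 0.05, and the smallest adjusted p was 0.566. At an unadjusted p under 0.05 there were 1063 genes (7.16%), of which 559 were higher and 504 lower in KO. Scaled by library totals alone, the same counts were 1097 and 153, and the median log2 fold change of all genes moved from -0.02 to 0.14. The other tools gave 0 genes (limma-voom) and 20 genes (DESeq2, 7 higher and 13 lower). When the fit was limited to the 4 libraries of 12 months with H or L as a block, 38 of 14105 genes (0.269%) passed, 17 higher (0.121%) and 21 lower (0.149%). That fit rests on 1 residual degree of freedom, and its calls are given below as those of the 4-library fit.

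The H and L pairs had few changes in common. Log2 ratios of KO over WT past 1 in size were found in 288 of 12626 genes in the H pair and in 721 in the L pair. Over all 12626 genes, most of them within that size, the ratios of the 2 pairs had a Pearson r of 0.109. This r is given as a description across genes of libraries made in 1 experiment. Both pairs passed 1 in the same direction in 73 genes (0.578%), 53 higher (0.42%) and 20 lower (0.158%), and in opposite directions in 42 genes. With library totals alone, 84 were higher and 15 lower. At any size, 28% of the 14843 genes tested were higher and 29.8% lower in KO in both pairs. With library totals alone, these were 7181 and 1875 genes. Both are the background for the counts of list members. Of the 53 higher genes, 43 had a mean level under 5 CPM, where counting error is large, and 1 was over 50 CPM. Of the 20 lower genes, 12 were under 5 CPM and 5 were over 50 CPM. Just inside the limit was Noct, with log2 ratios of 1.00 in the H pair and 1.71 in the L pair. Just outside was Ccl5, with 0.999 and 2.18.

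**Figure D2:**
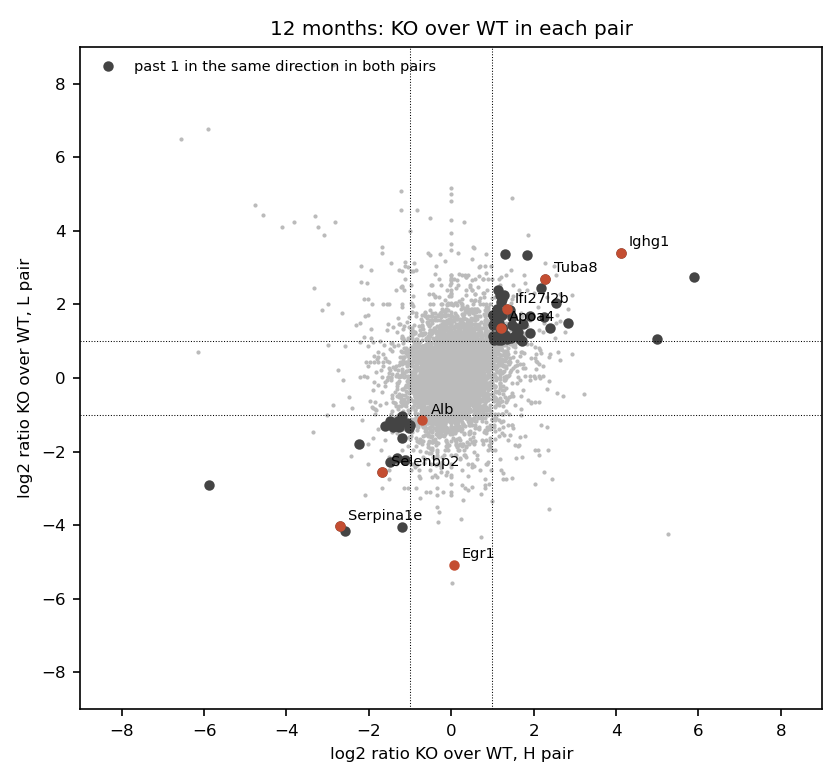
Log2 ratio of KO over WT in the H pair (horizontal axis) and the L pair (vertical axis) for each of the 14843 genes tested, with dotted lines at 1 and -1. Black points mark the genes past 1 in the same direction in both pairs and red points the named ones. Serpina1e and Selenbp2 lie far down to the left and Ighg1 far up to the right, while Egr1 is low in the L pair alone.

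Among genes higher in KO, Apoa4 had the smallest p. Apoa4 encodes apolipoprotein A-IV, a secreted lipid-binding protein that rises in liver with steatosis and fasting. It lies on chromosome 9 (GRCm38, 46240696 to 46243459, plus strand), next to Apoa1 and Apoc3. Its level was 109 CPM in WT_12m_H, 251 CPM in KO_12m_H, 76.5 CPM in WT_12m_L, and 198 CPM in KO_12m_L. Both KO libraries were above both WT libraries. They were also above the 47.1 to 85.2 CPM of the separately normalized 12-month time course, but so was WT_12m_H. Both KO libraries were above the range of that time course in 33.7% of all genes tested. The ratios were 2.30-fold in the H pair and 2.59-fold in the L pair, and the fitted log2 fold change was 1.29 ± 0.17 (SE, unadjusted p = 7.26e-05, adjusted p = 0.566, edgeR). It passed the 4-library fit (adjusted p = 0.00221, edgeR), DESeq2 on 12 and on 4 libraries, and an edgeR exact test within each pair (adjusted p = 0.0264 in H and 0.00157 in L). The latter sets 1 library against 1 with the dispersion taken from the 12-library fit, so it has no replicate of its own and compares those libraries only. At 6 months its level was 55.1 and 94.8 CPM in WT_6m_H and KO_6m_H and 82.8 and 186 CPM in WT_6m_L and KO_6m_L. At 2 months the levels were 78.3 and 73.3 CPM in the H pair and 49.2 and 71.5 CPM in the L pair. The 12-month effect was larger than the mean of the other ages by 0.69 on the log2 scale (unadjusted p = 0.0113), but no gene passed that contrast after adjustment.

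Serpina1e was the gene furthest below WT among those with the smallest p. It encodes one of the mouse alpha-1-antitrypsins, secreted inhibitors of serine proteases, and lies on chromosome 12 (103946931 to 103958975, minus strand). Its level was 864 CPM in WT_12m_H, 132 CPM in KO_12m_H, 3545 CPM in WT_12m_L, and 216 CPM in KO_12m_L. KO was at 0.153 of WT in the H pair and at 0.0609 of WT in the L pair, and the log2 fold change was -3.37 ± 0.56 (SE, unadjusted p = 3.01e-04, adjusted p = 0.566, edgeR). It passed the 4-library fit (adjusted p = 0.00114, edgeR) and was, with Apoa4, 1 of 2 genes called by each of 4 alternatives: DESeq2 on 12 libraries, edgeR and DESeq2 on 4 libraries, and the exact test in both pairs. RLE factors, library totals, limma-voom, and the fit without the block called 0 genes, these 2 included. Its near-identical neighbours were lower by much less: Serpina1b was at 4550 and 3855 CPM in the H pair and 4664 and 3381 CPM in the L pair, and Serpina1d at 2036 and 1615 CPM and at 2233 and 1563 CPM. Because these paralogs share most of their sequence, the split of reads among them is uncertain. At the other ages Serpina1e was also lower in each KO library, with 5992 and 4478 CPM in WT_2m_H and KO_2m_H, 6772 and 1761 CPM in WT_2m_L and KO_2m_L, 4370 and 1784 CPM in WT_6m_H and KO_6m_H, and 4856 and 517 CPM in WT_6m_L and KO_6m_L.

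The 200 bases before the start sites of Apoa4 and Serpina1e, the 2 genes called by those 4 alternatives, are shown to let their promoters be read beside the values (RefSeq, GRCm38.p6; chr9:46240644-46240843, plus strand, and chr12:103956898-103957097, minus strand). The 4 motifs below were searched on both strands in windows from 250 bases before to 50 bases after each start: GCGTGGGCG and GCGGGGGCG, which Egr-1 binds, CACGTG, the E-box of clock factors, and GAAANNGAA, the core of the interferon response element. A gene with several starts was counted as holding a motif if any of its windows held it. Neither the Apoa4 nor the Serpina1e promoter holds a match of GCGTGGGCG in the printed bases, and nothing is in capitals.
Apoa4: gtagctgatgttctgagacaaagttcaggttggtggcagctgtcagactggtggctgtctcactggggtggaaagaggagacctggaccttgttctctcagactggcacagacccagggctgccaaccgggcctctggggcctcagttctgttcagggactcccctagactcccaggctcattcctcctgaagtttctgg
Serpina1e: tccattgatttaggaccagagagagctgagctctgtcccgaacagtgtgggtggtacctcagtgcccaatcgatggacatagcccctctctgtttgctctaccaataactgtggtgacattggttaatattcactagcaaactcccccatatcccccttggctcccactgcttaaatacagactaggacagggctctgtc

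The Egr-1 motif GCGTGGGCG was in 191 of all 27025 gene promoters (0.707%) and in 148 of the 10818 promoters of genes tested (1.37%). Of the 53 genes higher in both pairs, 31 had a promoter in the table and 2 of these held the motif, Gpr153 and Bcl2a1d, while 0 of the 15 promoters of lower genes did. The variant GCGGGGGCG was in 0 promoters of either set, compared with 3.31% of all promoters and 6.19% of those of genes tested. The sets hold only 31 and 15 promoters, and the difference was not tested. Gpr153 and Bcl2a1d are shown as the shared higher genes with a match of GCGTGGGCG, with the motif in capitals (RefSeq, GRCm38.p6; chr4:152273912-152274111, plus strand, for 1 of 2 starts of Gpr153, and chr9:88731851-88732050, minus strand). Whether Egr-1 acts on them was not tested.
Gpr153: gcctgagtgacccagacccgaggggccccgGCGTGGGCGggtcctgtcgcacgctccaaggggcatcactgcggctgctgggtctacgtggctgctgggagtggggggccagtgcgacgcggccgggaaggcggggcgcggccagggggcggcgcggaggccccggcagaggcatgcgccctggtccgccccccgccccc
Bcl2a1d: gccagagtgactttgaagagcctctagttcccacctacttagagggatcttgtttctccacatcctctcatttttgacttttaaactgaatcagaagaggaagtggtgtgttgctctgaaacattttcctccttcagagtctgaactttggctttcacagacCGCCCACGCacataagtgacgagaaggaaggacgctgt

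Gpr153, an orphan G protein-coupled receptor, was at 1.66, 4.21, 0.576, and 3.20 CPM in WT_12m_H, KO_12m_H, WT_12m_L, and KO_12m_L. Bcl2a1d, a member of the BCL2 family of survival proteins found in white blood cells, was at 0.586, 1.42, 0.192, and 1.47 CPM. Both were low in all 4 libraries, and a motif match is a description of letters and not of binding.

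Interferon-induced genes had the highest median of the 27 gene lists. These genes are switched on by signalling from the interferon receptors and encode antiviral proteins, GTPases of the GBP and IRG families, and feedback regulators. Of the 36 listed, 0 passed the adjusted test, but 31 were higher in KO in both pairs (all genes: 28%) and 0 were lower in both, and 26 had an unadjusted p under 0.05, each higher in KO (all genes: 3.77%). Their median log2 fold change was 0.63, with 0.76 in the H pair and 0.44 in the L pair, and with library totals alone 34 were higher in both pairs. In 28 of the 36, both KO libraries were above both WT libraries (all genes: 17.9%).

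Iigp1, an immunity-related GTPase and the most abundant member, was at 247, 286, 289, and 361 CPM in WT_12m_H, KO_12m_H, WT_12m_L, and KO_12m_L. Ifi27, a mitochondrial and nuclear membrane protein induced by type I interferon, was at 129, 331, 215, and 354 CPM, with a log2 fold change of 1.04 ± 0.17 (SE, unadjusted p = 2.86e-04, adjusted p = 0.566, edgeR). Ly6e, a membrane protein that limits virus entry, was at 227, 275, 230, and 272 CPM. Each of these was higher in the KO library of its pair, and only Ifi27 exceeded 1.5-fold in both.

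Apol9a was at 31.5 CPM in WT_12m_H, 80.3 CPM in KO_12m_H, 66.3 CPM in WT_12m_L, and 109 CPM in KO_12m_L, with a log2 fold change of 1.03 ± 0.17 (SE, unadjusted p = 2.70e-04, adjusted p = 0.566, edgeR). Its close copy Apol9b was at 70.1, 111, 126, and 171 CPM, so that reads of the pair may have been split between them. Ifi27l2b, in the same cluster on chromosome 12 as Ifi27, was at 11.1, 28.5, 5.64, and 20.9 CPM (log2 fold change 1.60 ± 0.28, SE). Ifi27, Apol9a, Ifi27l2b, and Gbp3 passed the 4-library fit (adjusted p from 0.00429 to 0.0472, edgeR), which called 4 members higher and 0 lower.

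Regulators of the response differed less evenly. Irf7, the factor that amplifies interferon production, was at 38.8 and 88.0 CPM in the H pair and 86.3 and 111 CPM in the L pair. Usp18, which damps receptor signalling, was at 4.29 and 14.8 CPM and at 10.2 and 16.5 CPM, with a log2 fold change of 1.22 ± 0.25 (SE). Stat2, a factor that carries the receptor signal to the nucleus, was at 37.7 and 42.5 CPM in the H pair and 45.8 and 28.1 CPM in the L pair. Stat2, Bst2, Rsad2, Oas1g, and Oas2 were the 5 members whose direction differed between pairs, each higher in KO_12m_H and lower in KO_12m_L than in WT.

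**Figure D3:**
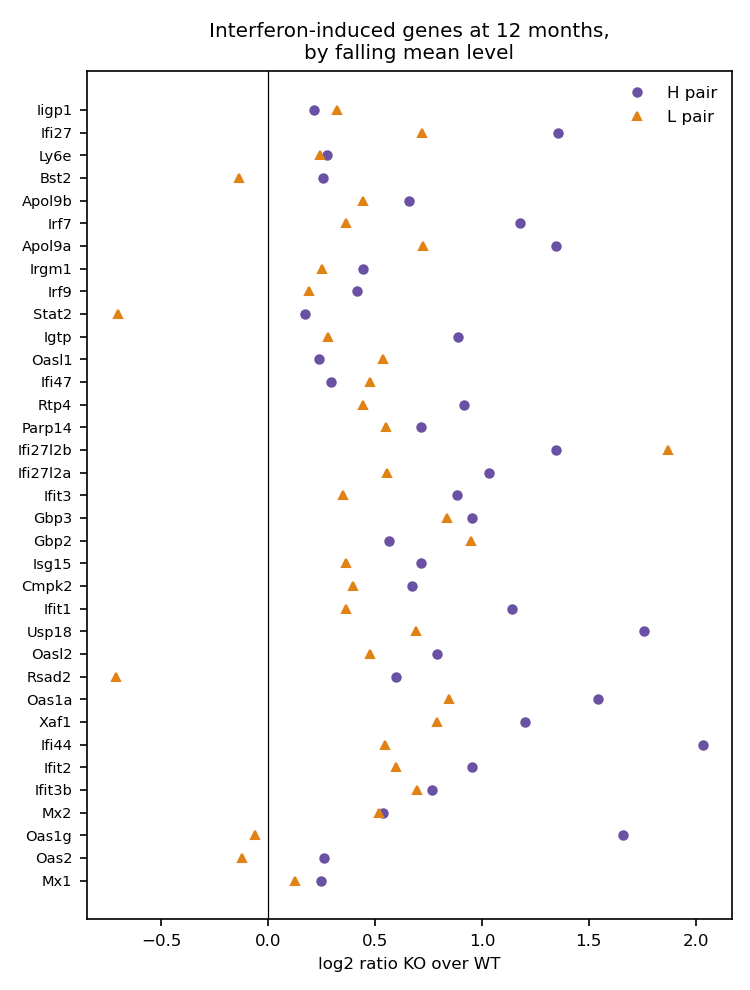
Log2 ratio of KO over WT in the H pair (circles) and the L pair (triangles) for 35 of the 36 interferon-induced genes, ordered by falling mean level. Of these, 30 have both symbols right of 0, and 5 (Bst2, Stat2, Rsad2, Oas1g, and Oas2) have the L symbol left of 0.

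The response-element core GAAANNGAA was found in the promoters of 16 of the 24 interferon-induced genes with a promoter in the table (66.7%), compared with 9.76% of all promoters. Of the members with an unadjusted p under 0.05, 12 of 19 held it (63.2%). It is a known trait of these genes, and it was in 3 of the 31 promoters of the 53 shared higher genes (9.68%). The promoters of 4 members with this core and small p are shown, with the matches in capitals, 200 bases up to the start site (RefSeq, GRCm38.p6; Apol9a chr15:77411081-77411280, minus strand; Gbp3 chr3:142559844-142560043, plus strand; Ifit3 chr19:34583329-34583528, plus strand; Oas1a chr5:120907526-120907725, minus strand). Matches that overlap run together.
Apol9a: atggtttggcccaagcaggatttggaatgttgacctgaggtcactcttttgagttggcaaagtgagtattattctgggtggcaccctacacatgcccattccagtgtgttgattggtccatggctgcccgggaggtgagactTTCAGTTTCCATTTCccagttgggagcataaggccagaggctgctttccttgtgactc
Gbp3: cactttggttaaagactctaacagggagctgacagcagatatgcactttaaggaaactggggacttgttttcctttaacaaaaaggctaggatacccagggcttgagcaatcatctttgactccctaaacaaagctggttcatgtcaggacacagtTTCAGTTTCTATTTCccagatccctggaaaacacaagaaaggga
Ifit3: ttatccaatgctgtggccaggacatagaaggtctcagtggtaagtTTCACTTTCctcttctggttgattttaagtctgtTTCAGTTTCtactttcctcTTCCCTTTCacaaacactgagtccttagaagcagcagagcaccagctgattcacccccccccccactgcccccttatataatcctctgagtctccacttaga
Oas1a: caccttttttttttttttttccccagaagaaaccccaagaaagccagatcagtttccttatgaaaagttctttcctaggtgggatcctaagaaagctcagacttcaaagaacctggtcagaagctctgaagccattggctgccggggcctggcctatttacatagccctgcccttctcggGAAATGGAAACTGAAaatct

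Apol9a and Gbp3 hold 2 overlapping matches each, Ifit3 3, and Oas1a 2. Gbp3 was at 9.17, 17.9, 10.6, and 19.0 CPM in WT_12m_H, KO_12m_H, WT_12m_L, and KO_12m_L, Ifit3 at 9.81, 18.2, 14.6, and 18.6 CPM, and Oas1a at 2.98, 8.90, 5.70, and 10.3 CPM. In all 3 genes both KO libraries were above both WT libraries.

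Markers of resident macrophages were also higher. All 11 Kupffer cell and macrophage markers were higher in KO in both pairs (all genes: 28%), with a median log2 fold change of 0.37. Their summed level was 728 and 914 CPM in the H pair and 675 and 889 CPM in the L pair. Lyz2, encoding lysozyme, was the most abundant, at 180, 232, 148, and 222 CPM, and Clec4f, a lectin of Kupffer cells, was at 112, 119, 115, and 129 CPM. Of 9 T and NK cell markers tested, 5 were higher and 0 lower in both pairs (all genes: 28% and 29.8%), with a median log2 fold change of 1.10. Summed markers of T and NK cells were 4.44 and 9.98 CPM in the H pair and 7.49 and 8.88 CPM in the L pair. In bulk liver, more cells of a type and more RNA per cell cannot be told apart, and the part of these cells in the interferon result was not tested.

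Antigen presentation and chemokine genes were also more often higher than lower in KO in both pairs. Of 17 antigen presentation genes, 12 were higher in both pairs and 0 lower (all genes: 28% and 29.8%). Their median log2 fold change was 0.32, which came mostly from the H pair (0.50, compared with 0.08 in the L pair). B2m, H2-K1, and H2-D1, the class I chain genes and the 3 most abundant members, were within 1.13-fold in the H pair and showed no shared change, with log2 fold changes of 0.01, -0.05, and 0.10 (H2-K1 0.10 with library totals alone). Psmb9, a subunit of the immunoproteasome, was at 19.8, 32.7, 24.7, and 35.2 CPM. Of 15 chemokines tested, 9 were higher and 2 lower in both pairs (all genes: 28% and 29.8%), with a median log2 fold change of 0.54. Cxcl9, an attractant of T cells induced by interferon gamma, was at 12.3, 28.7, 14.8, and 22.9 CPM, while Ccl9 was at 61.2, 42.2, 75.6, and 36.5 CPM and lower in both pairs. Psmb9, Cxcl9, and Ccl9 were picked after their values were seen.

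Of the 53 shared higher genes, 4 were immunoglobulin genes, made by B and plasma cells (7.55%, compared with 14 of the 12626 genes considered, 0.111%). They were Ighg1, Ighg2c, Igha, and Igkv3-5. The genes considered needed the count minimum only in the higher library of each pair. Ighg1, which was low in both WT libraries, met it through the KO libraries. Both shares depend on this rule, and the difference between them was not tested. Ighm, which did not reach a log2 ratio of 1 in either pair, the heavy chain of IgM, was at 82.8, 142, 81.1, and 146 CPM (log2 fold change 0.81 ± 0.18, SE, 4-library adjusted p = 0.0266, edgeR). Ighg1 was at 0.244 and 6.01 CPM in the H pair and 0.384 and 5.14 CPM in the L pair, and passed the 4-library fit (adjusted p = 0.00477, edgeR). The kappa chain gene Igkc did not follow, with 54.6 and 47.2 CPM in the H pair and 24.7 and 71.8 CPM in the L pair. Summed markers of B and plasma cells were 363 and 397 CPM in the H pair and 329 and 469.5 CPM in the L pair, and their part in the result was not tested. Reads of immunoglobulin genes are hard to assign among near copies. These genes lie outside the rule for named genes and were picked after their values were seen.

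Extracellular matrix genes were higher in KO in both pairs in 17 of 20 members (all genes: 28%), with 0 lower in both and a median log2 fold change of 0.50. In the list, 9 had an unadjusted p under 0.05, each higher (all genes: 3.77%). In 6 of the 20, both KO libraries were above both WT libraries (all genes: 17.9%). Dcn, encoding the collagen-binding proteoglycan decorin, was at 259 and 272 CPM in the H pair and 150 and 251 CPM in the L pair. Col3a1, encoding type III collagen, was at 60.02 and 77.8 CPM and at 28.2 and 39.5 CPM, and Timp2, an inhibitor of matrix proteases, at 54.8 and 68.4 CPM and at 27.4 and 53.1 CPM. All 3 were higher in the KO library of each pair, but the H libraries were above the L libraries of the same genotype, so that the 4 values overlapped by genotype.

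Col1a2, encoding a chain of type I collagen, was the member that passed the 4-library fit, at 22.2, 37.8, 10.95, and 19.5 CPM (log2 fold change 0.80 ± 0.16, SE, 4-library adjusted p = 0.0433, edgeR). Ccdc80, a secreted matrix protein outside the list, was among the 5 higher genes with the smallest p, at 12.1, 19.4, 8.13, and 15.6 CPM (0.80 ± 0.14 on the log2 scale). Acta2, the smooth muscle actin of activated stellate cells and vessels, ran against the list in the H pair, with 13.7 CPM in WT_12m_H, 3.37 CPM in KO_12m_H, 1.22 CPM in WT_12m_L, and 1.67 CPM in KO_12m_L. Summed stellate cell markers were 715 and 733 CPM in the H pair and 480 and 673 CPM in the L pair, and their part in the result was not tested.

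Cell cycle genes had a median log2 fold change of 0.53, with 11 of 17 higher and 1 lower in both pairs (all genes: 28% and 29.8%). The abundant members were level: Pcna, the polymerase clamp, was at 43.2, 42.3, 40.3, and 41.2 CPM, Cdkn1a, a cell cycle inhibitor, at 44.1, 39.5, 27.8, and 32.7 CPM, and Ccnd1 at 14.1, 12.9, 17.2, and 14.8 CPM. Members of lower level stood further from WT, such as Top2a, a topoisomerase of dividing cells, at 1.02, 4.16, 1.41, and 3.47 CPM, and the replication factor Mcm5, at 3.51, 7.82, 3.78, and 7.41 CPM. Both were picked after their values were seen. Tuba8, a tubulin of low level in liver, was at 0.586, 3.28, 0.512, and 3.94 CPM, with a log2 fold change of 2.68 ± 0.47 (SE, unadjusted p = 4.37e-04, adjusted p = 0.566, edgeR).

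**Figure D4:**
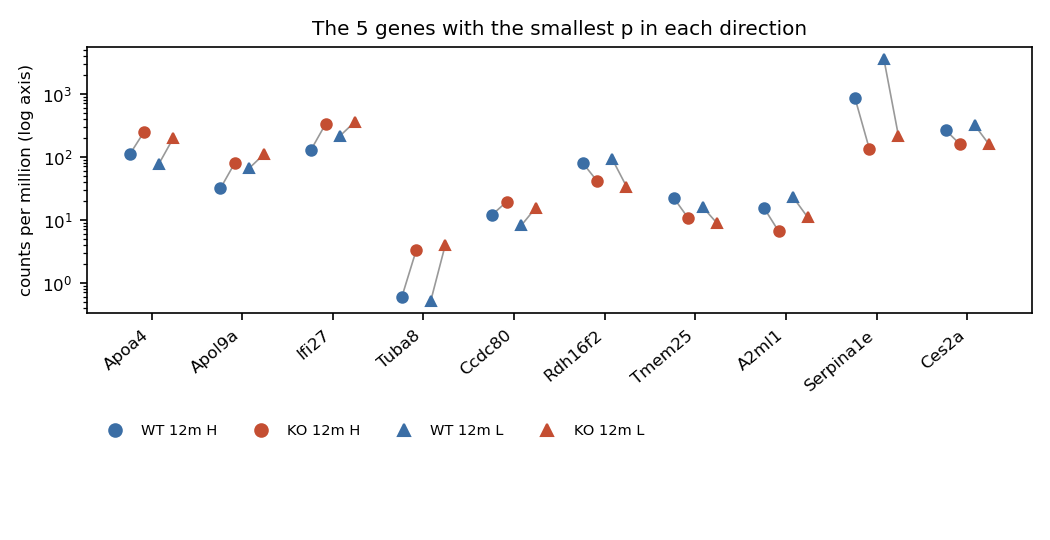
Level (CPM, log axis) of the 5 genes with the smallest p in each direction, with circles for the H pair, triangles for the L pair, blue for WT and red for the libraries labelled KO, and grey lines joining each pair. Apoa4 to Ccdc80 stand higher in KO in both pairs and Rdh16f2 to Ces2a lower.

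Albumin RNA was lower in KO in both pairs. Alb, encoding serum albumin and the gene whose promoter drives Cre in the KO mice, was at 52687 CPM in WT_12m_H, 32330.1 CPM in KO_12m_H, 58367 CPM in WT_12m_L, and 26459 CPM in KO_12m_L. Both KO libraries were below both WT libraries, and the log2 fold change was -0.92 ± 0.18 (SE, unadjusted p = 7.68e-04, 4-library adjusted p = 0.00944, edgeR). The same order held at the other ages, with 54244 and 35986 CPM in WT_2m_H and KO_2m_H, 58470.3 and 34057 CPM in WT_2m_L and KO_2m_L, 66548 and 27085 CPM in WT_6m_H and KO_6m_H, and 58848 and 33561 CPM in WT_6m_L and KO_6m_L. The 12-month effect differed from that of the other ages by -0.05 on the log2 scale (unadjusted p = 0.810). Whether the WT littermates carried Cre is not given in the sources used here.

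Apolipoproteins did not move together. Of 16 tested, 3 were higher and 9 lower in both pairs (all genes: 28% and 29.8%), with a median log2 fold change of -0.21. The 3 higher ones were Apoa4, Apol9a, and Apol9b, and Apol9a and Apol9b are also counted among the interferon-induced genes. Library totals alone gave 5 higher and 6 lower. Apoe was at 25987, 26286, 26110.5, and 19468 CPM in WT_12m_H, KO_12m_H, WT_12m_L, and KO_12m_L, and Apoa2 at 9787, 8948, 10756, and 8821 CPM. Apoa1, the main protein of high-density lipoprotein, was at 6146, 4140.5, 8456, and 4039 CPM, with a log2 fold change of -0.82 ± 0.17 (SE, 4-library adjusted p = 0.0403, edgeR). Apoa1, Apoc3, and Apoa4 are neighbours on chromosome 9 (Apoa1 from 46228580 to 46230466), yet Apoa1 was lower, Apoa4 higher, and Apoc3 nearly level, at 2409, 2378, 2541, and 2334 CPM. Apom, which carries sphingosine 1-phosphate in high-density lipoprotein, was at 105, 71.5, 143, and 74.6 CPM (-0.74 ± 0.17 on the log2 scale).

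Genes with higher levels in male liver were lower in KO at several loci. Of 24 male-biased genes tested, 13 were lower and 3 higher in both pairs (all genes: 29.8% and 28%), with a median log2 fold change of -0.32. The 4-library fit called 5 lower (all genes: 0.149%) and 0 higher. In the 12-library edgeR fit, 3 were lower and 1 higher at an unadjusted p under 0.05 (all genes: 3.4% and 3.77%). With library totals alone, 10 were lower and 5 higher in both pairs. Both KO libraries were below the whole range of the separately normalized 12-month time course in 13 of the 24 (all genes: 6.31%). Slco1a1, an uptake carrier of bile acids and steroids, was at 244, 119, 427, and 167 CPM (log2 fold change -1.20 ± 0.31, SE). Hsd3b5, a steroid dehydrogenase of male liver, was at 105, 39.0, 171, and 70.9 CPM (-1.35 ± 0.45). Selenbp2, a selenium-binding protein, was at 67.9, 21.2, 162, and 27.5 CPM (-2.12 ± 0.52). In each of these, both KO libraries were below both WT libraries, and each passed the 4-library fit with an adjusted p of at most 0.0053 (edgeR). DESeq2 on all 12 libraries did not call Slco1a1, Hsd3b5, or Selenbp2 (adjusted p = 0.448, 0.835, and 0.283).

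The major urinary proteins, pheromone carriers made by male liver, did not move together. Mup3 was at 5873, 4416, 8512, and 7172 CPM, Mup12 at 3051, 1020, 1642, and 1018 CPM, and Mup17 at 1886, 1570.1, 938, and 9773 CPM. Mup17 was thus 10.4-fold higher in KO_12m_L than in WT_12m_L and lower in KO_12m_H than in WT_12m_H. Mup genes are near-identical copies, and reads may be split among them. Of 15 female-biased genes tested, 5 were higher and 2 lower in both pairs (median 0.09). In the growth hormone axis, which sets these sex differences, Ghr and Igf1 differed little, with log2 fold changes of -0.08 and -0.02, which turned to 0.07 and 0.13 with library totals alone. Cish, a feedback inhibitor induced by growth hormone, was at 4.03 CPM in WT_12m_L and 27.5 CPM in KO_12m_L, and Bcl6, a repressor of female-biased genes, at 51.5 and 7.94 CPM, while in the H pair they were at 4.39 and 5.67 CPM and at 35.5 and 25.8 CPM. Both were picked after their values were seen.

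Bile acid genes were lower as a list: 13 of 15 were lower and 0 higher in both pairs (all genes: 29.8% lower), with a median log2 fold change of -0.33, and 11 of 15 had both KO libraries below both WT libraries (all genes: 19.7%). Of the 5 with an unadjusted p under 0.05, each was lower in KO (all genes: 3.4%). Slco1b2, a sinusoidal uptake carrier and the most abundant member, was at 870 and 769 CPM in the H pair and 766 and 910 CPM in the L pair. Slc10a1, the sodium-dependent carrier of conjugated bile acids, was at 450 and 368 CPM and at 471 and 350.4 CPM, and Cyp27a1, which starts the acidic pathway of bile acid synthesis, at 418 and 366 CPM and at 432 and 334 CPM. Cyp7a1, the rate-limiting enzyme of the classic pathway, was at 62.8 and 58.8 CPM and at 85.6 and 46.1 CPM. With library totals alone, 10 were lower and 2 higher in both pairs.

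Of 17 hepatokines and secreted regulators, 11 were lower and 2 higher in both pairs (median -0.32), and 8 and 5 with library totals alone. Ahsg, encoding fetuin-A, was at 2941, 2344, 3371, and 2353 CPM. Selenop, the selenium carrier of plasma, was level at 4647, 4368, 4850.3, and 5249 CPM. Enho, which encodes the peptide adropin, was at 6.25 and 3.47 CPM in the H pair and 19.2 and 3.67 CPM in the L pair. The fibrinogen genes Fga, Fgb, and Fgg were lower in both pairs, with log2 fold changes of -0.42, -0.48, and -0.45, among 26 acute-phase genes of which 15 were lower and 4 higher in both pairs. Hamp, encoding the iron hormone hepcidin, was at 543 and 494 CPM in the H pair and 1244 and 573 CPM in the L pair, and Hamp2, its near copy, at 49.5, 24.5, 15.5, and 6.28 CPM. The median of the acute-phase list, -0.15, went to 0.00033 with library totals alone and has no stable direction.

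A2ml1, related to the plasma protease inhibitor alpha-2-macroglobulin, was at 15.1, 6.504, 22.5, and 10.9 CPM, with a log2 fold change of -1.13 ± 0.19 (SE, unadjusted p = 2.83e-04, adjusted p = 0.566, edgeR). At the younger ages it was lower still against WT, at 20.1 and 5.68 CPM in WT_2m_H and KO_2m_H, 21.6 and 4.001 CPM in WT_2m_L and KO_2m_L, 28.6 and 5.76 CPM in WT_6m_H and KO_6m_H, and 18.0 and 4.96 CPM in WT_6m_L and KO_6m_L. The difference of the 12-month effect from the mean of the others was 0.97 on the log2 scale (unadjusted p = 0.00288, adjusted p = 1, edgeR). The gene was lower in the KO library of all 6 pairs.

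Rdh16f2 and Ces2a, each an enzyme, were among the 5 lower genes with the smallest p. Rdh16f2, a retinol dehydrogenase of the Rdh16 family on chromosome 10 (127866474 to 127877317), was at 78.6 CPM in WT_12m_H, 40.4 CPM in KO_12m_H, 93.3 CPM in WT_12m_L, and 33.6 CPM in KO_12m_L. Its log2 fold change was -1.21 ± 0.17 (SE, unadjusted p = 8.30e-05, adjusted p = 0.566, edgeR), and the 4-library fit called it (adjusted p = 0.00907). Its relative Rdh16 was level in the H pair, at 192 and 191 CPM, and at 130 and 158 CPM in the L pair. Ces2a, a carboxylesterase that hydrolyses drugs and glycerides, was at 265, 158, 319, and 157 CPM (-0.89 ± 0.15 on the log2 scale). Tmem25, a membrane protein, was at 22.2, 10.7, 15.9, and 8.75 CPM (-0.97 ± 0.15). Aox3, an aldehyde oxidase of liver that was picked after its values were seen, was at 532, 332, 674, and 405 CPM.

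Lipid droplet genes gave no common direction. Of 17 tested, 6 were higher and 4 lower in both pairs, with a median of -0.01. Plin2, the main coat protein of hepatocyte droplets, was at 732, 747, 587, and 608 CPM, Fitm1, which helps droplets form, at 240, 275, 264, and 247 CPM, and Hsd17b13, a droplet enzyme of periportal hepatocytes, at 285, 224, 303, and 178 CPM. Cidea, which fuses droplets and is held low in lean liver, was at 85.5 CPM (95% Poisson interval 81.6 to 89.6) in WT_12m_H, 128 CPM (123 to 133) in KO_12m_H, 46.5 CPM (43.2 to 50.0) in WT_12m_L, and 87.3 CPM (82.7 to 92.2) in KO_12m_L. The ratios were 1.501-fold and 1.88-fold and the log2 fold change was 0.74 ± 0.36 (SE, unadjusted p = 0.0748, 4-library adjusted p = 0.0491, edgeR).

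For Cidea, the WT level set the 12-month pairs apart from the younger ones. The 6-month H pair held 1.62 and 15.3 CPM (WT and KO), and the 6-month L pair 1.62 and 88.6 CPM. At 2 months it was 0 and 0.914 CPM in the H pair and 0.0693 and 0.191 CPM in the L pair. The 12-month log2 fold change was below the mean of the other ages by -3.58 (unadjusted p = 0.00411, adjusted p = 1, edgeR). In the 12-month time course, from other mice and normalized separately, Cidea stayed between 0.552 and 4.50 CPM, so that the 2 WT libraries of the genotype experiment were above the level of 12-month C57BL/6J mice in that table.

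The other lipid lists differed little or in the L pair alone. The median log2 fold change was -0.14 in de novo lipogenesis (16 genes), -0.11 in fatty acid uptake and triglyceride synthesis (20 genes), and -0.08 in fatty acid oxidation (24 genes). With library totals alone these 3 medians turned to 0.01, 0.04, and 0.07. Cholesterol synthesis and uptake genes had a median of -0.31, with 15 of 21 lower and 1 higher in both pairs, and 0 of them had an unadjusted p under 0.05. Scaled by library totals, 8 were lower and 2 higher (median -0.15). Their median was -0.08 in the H pair and -0.44 in the L pair. Noct, a NADPH phosphatase that follows the clock and affects lipid absorption, was at 8.05, 16.2, 29.7, and 97.4 CPM (4-library adjusted p = 0.00751, edgeR).

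Hepatocytes differ along the lobule, with urea and glucose synthesis near the portal vein and glutamine synthesis near the central vein. Of 10 periportal markers, 8 were lower and 1 higher in both pairs (all genes: 29.8% and 28%), with a median of -0.57. Of 10 pericentral markers, 1 was lower and 4 were higher, near the shares of all genes on the higher side (median 0.12). The pericentral median was -0.05 in the H pair and 0.24 in the L pair, so its direction differed between pairs. Cyp2f2, a periportal P450, was at 524, 380, 584, and 356 CPM (log2 fold change -0.59 ± 0.14, SE). Oat, a pericentral enzyme of ornithine breakdown, was at 800.4, 1126, 782, and 1441 CPM (0.69 ± 0.19). It had the highest log2 fold change of the 10 pericentral markers. The summed pericentral markers were at 8823, 8707, 8521, and 9882 CPM. Pck1, which opens gluconeogenesis and is counted as periportal, was the member that ran the other way, at 569, 694, 897, and 1410 CPM. Of 24 genes of amino acid breakdown and the urea cycle, 17 were lower and 2 higher in both pairs (median -0.22). Nuclear genes of oxidative phosphorylation had a median of -0.16, with 16 of 20 lower in both pairs, and protein folding genes a median of -0.15, with 11 of 22 lower. The medians of the drug metabolism, retinoid, amino acid stress, and gluconeogenesis lists were -0.07, -0.06, -0.01, and -0.10. With library totals alone, oxidative phosphorylation had 2 genes higher and 3 lower in both pairs (median -0.0056) and protein folding 7 higher and 9 lower (0.0057), and the other 4 medians were 0.08, 0.11, 0.12, and 0.05, so that none of these lists has a stable direction. Amino acid breakdown had 6 higher and 10 lower (-0.06).

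**Figure D5:**
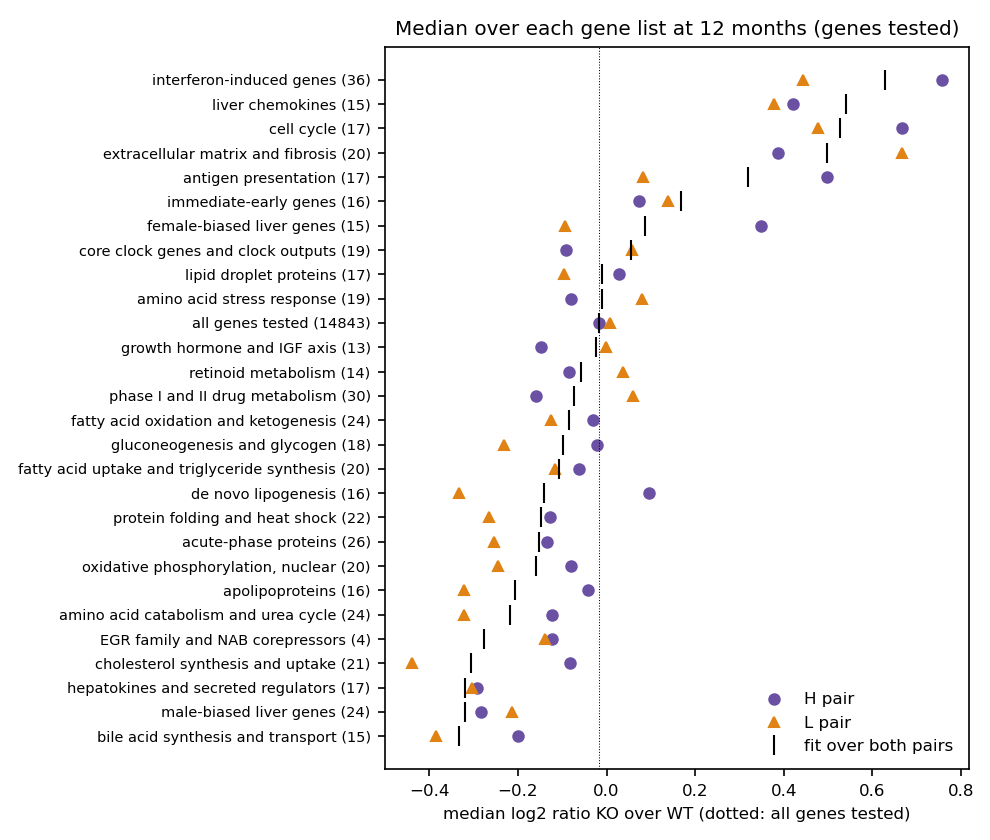
Median log2 ratio of KO over WT over each of the 27 gene lists and over all genes, with circles for the H pair, triangles for the L pair, and bars for the fit over both, and the number of genes tested in brackets. Interferon-induced genes lie furthest right (0.63 in the fit) and bile acid genes furthest left (-0.33).

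Clock genes had no common direction: of 19 tested, 5 were higher and 6 lower in both pairs, with a median log2 fold change of 0.05. Some of them stood apart within the L pair and were nearly level within the H pair. The core clock is a loop in which Arntl and Clock drive the Per, Cry, and Nr1d genes that then repress them. Bhlhe40 was at 81.0 and 85.5 CPM in the H pair and 100.4 and 121 CPM in the L pair, and Rora at 63.2 and 55.6 CPM and at 49.8 and 50.1 CPM. Per1 was at 5.27 and 5.53 CPM in the H pair but at 3.07 and 20.3 CPM in the L pair. Nr1d1 was at 8.64 and 6.85 CPM and at 12.6 and 3.605 CPM, and Arntl at 31.6 and 29.6 CPM and at 22.3 and 10.9 CPM. Per1, Nr1d1, and Arntl were picked after their values were seen. In the 12-month time course these 3 genes ranged over the day from 1.84 to 23.4 CPM, from 1.34 to 44.3 CPM, and from 0.788 to 18.9 CPM, so the L pair differences of Per1 and Nr1d1 lay within 1 day's range. For Arntl, both WT libraries and KO_12m_H were above its time course range, and KO_12m_L was within it. The heat shock gene Hspa1a also differed in the L pair alone, at 0.576 and 6.88 CPM, and 0.683 and 0.440 CPM in the H pair. With 1 library each, differences between mice cannot be told apart from genotype in the L pair.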

How the data were processed

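The authors sequenced poly(A) RNA of mouse liver, trimmed reads with fastp, aligned them to mm10 with HISAT2, and counted reads per gene with featureCounts. Tool versions, strand setting, and annotation are not given in the sources used here. The deposited values are raw counts of 55471 genes in 12 genotype libraries, and a second count table holds the time course. Names and positions came from GENCODE M21 (55230 IDs matched). Genes were kept with edgeR 4.0.16 filterByExpr, scaled with TMM, and fitted in R 4.3.3 with edgeR's quasi-likelihood model over all 12 libraries, with age and collection time as a block and genotype within age. Adjusted p is Benjamini-Hochberg over all genes tested. Pair ratios used a prior count of 2 and at least 20 counts in the higher library of each pair. limma 3.58.1 and DESeq2 1.42.0 were alternatives. Counts were simulated for this comparison with 14604 genes. Changes were put only into genes with a mean level over 5 CPM and were equal in the H and L pairs. The dispersion of each gene was set by the trend over all genes, with none of its own. Under these settings the fit called 81% of genes changed by 1 on the log2 scale and 100% of those changed by 2. It made 6 false calls. How often the fit finds such differences in the real libraries, where the H and L ratios had a Pearson r of 0.109, was not tested. Members, lists, and tests were chosen with earlier results of these data known. Named genes were Egr1, the 5 smallest p per direction, and up to 3 of the most abundant members of a list, and every other gene named was picked after its values were seen. Some members of the lists were counted but are not reported here by name.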

Additional observations from a re-analysis of the deposited data

Results flagged for a closer look

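Gapdh, a glycolytic enzyme in the list of gluconeogenesis and glycogen genes, passed a log2 ratio of 1 in opposite directions in the 2 pairs. Its level was 3.95 CPM in WT_12m_H, 10.4 CPM in KO_12m_H, 15.4 CPM in WT_12m_L, and 4.74 CPM in KO_12m_L, with log2 ratios of 1.37 in the H pair and -1.67 in the L pair. The difference between pairs was not tested. Gapdh has many processed copies in the mouse genome, and its low level here is listed as counted. Over all genes, 28 of the 42 with opposite directions were higher and 14 lower in the L pair.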

How the results depend on the processing

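The number of genes called at 12 months was 0 with the 12-library edgeR fit and also 0 with RLE factors, library totals, limma-voom, and without the replicate block (1091 genes at an unadjusted p under 0.05, compared with 1063 with the block). It was 129 with no filter on low counts, 20 with DESeq2, 38 in the 4 libraries of 12 months with H or L as a block, 12 with the exact test called in both pairs, and 40 with DESeq2 on the 4 libraries, which was chosen after seeing the data. Leaving out 1 pair at a time gave 0 to 1 genes, with 1 called without the H pair. For the 12-month effect against that of 2 and 6 months, 0 genes were called, with 430 at an unadjusted p under 0.05, and 11 with no filter; the other alternatives gave 0. Genes shared by both pairs numbered 53 higher and 20 lower, 371 and 154 at a log2 threshold of 0.5, 27 and 13 at 1.2, 9 and 10 with a count minimum of 100, and 84 higher and 15 lower with library totals. The Egr1 log2 fold change turned from -2.29 to 0.0778 without the L pair and was -5.17 without the H pair. Small differences also turned: H2-K1 to 0.0997 with library totals and 0.0644 without the L pair (-0.156 without the H pair), Ghr to 0.0701 with library totals, and Igf1 to 0.13 with library totals and 0.102 without the H pair (-0.133 without the L pair). The other genes whose fitted fold change is printed kept their direction wherever a setting gave a value, and genes given by their levels alone were not rerun. The cause of the differing counts was not tested. With 1 library for each genotype and time, differences between animals were not measured.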

Other observations

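Zfp969, a zinc-finger gene, had no count in KO_12m_H and 0.601 CPM in KO_12m_L, compared with 6.39 and 5.19 CPM in the WT libraries. The 12-month time course ranged from 0.517 to 19.2 CPM for this gene. Rn7sk, a small nuclear RNA without a poly(A) tail, was at 0 CPM in WT_12m_H, 6.504 CPM in KO_12m_H, 0.768 CPM in WT_12m_L, and 5.74 CPM in KO_12m_L. Gadd45g, a stress-induced gene, was at 11.8, 27.3, 5.96, and 25.1 CPM in the same order. Cyp2b13, a female-biased P450 listed at 2.00 and 0.244 CPM in the H pair and 1.86 and 0 CPM in the L pair, was at most 0.413 CPM in the libraries of 2 and 6 months.

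Compared with the 12-month time course, both KO libraries were above its whole range in 30 of 36 interferon-induced genes, and in 33.7% of all genes tested, with tables that were normalized separately. These values are set side by side across tables and were not tested.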
